A study of Homo sapiens with 6 samples.

Results

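The regions described here are the RNA polymerase II binding regions that the nearest-gene annotation of the deposited lists assigned to a microRNA gene in HepG2 cells, a human hepatoma line. They were chosen by gene symbol alone (MIR followed by a digit, or MIRLET7, with host genes ending in HG left out) and numbered 5639 of the 271336 regions in 4 lists, on 692 microRNA genes. The lists came from chromatin immunoprecipitation and sequencing (ChIP-seq) of RPB1, the largest subunit of RNA polymerase II, and of RPB1 phosphorylated at serine 2 of its C-terminal repeats (phospho-Ser2). Both were profiled in untreated cells carrying the SHP-1-WT genotype (CRISPR control, called WT below) and in cells carrying the SHP-1-KO genotype (CRISPR knockout of PTPN6, the gene of the tyrosine phosphatase SHP-1, called KO below), to ask how the loss of SHP-1 changes polymerase occupancy. The study's cell lines were single-cell clones, the control carrying a nontargeting guide, so the genotype cannot be told apart from the clone. Each antibody and genotype had 1 library, and therefore no value below has a replicate error and the differences given between the genotypes were not tested.

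MicroRNAs are short RNAs that bind messenger RNAs through their seed, the bases near the 5′ end, and lower translation or stability of the target. Most are cut from long primary transcripts made by RNA polymerase II, first into a hairpin by Drosha in the nucleus and then into the mature arms by Dicer, and many hairpins lie inside the introns of host genes. Serine 2 phosphorylation marks polymerase that is elongating, so RPB1 regions tend to mark transcription starts and phospho-Ser2 regions the bodies and ends of transcribed genes. A region listed under a microRNA gene is a region whose nearest annotated start is that of the hairpin, which need not be the transcript the polymerase is making.

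Of the 692 genes, 574 (82.8%) had a hairpin in the RefSeq table used here (GRCh38.p14), 563 of them with the same coordinates as in the lists. The mature sequences below come from that table, with the seed (bases 2 to 8) in capitals. The first set is the miR-200 family, shown because its members share 2 seeds while being made from a locus on chromosome 1 and a locus on chromosome 12, which stood differently in the KO lists.
hsa-miR-200a-3p (chr1:1167916-1167937): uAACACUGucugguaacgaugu
hsa-miR-141-3p (chr12:6964155-6964176): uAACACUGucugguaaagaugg
hsa-miR-200b-3p (chr1:1167160-1167181): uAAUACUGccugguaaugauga
hsa-miR-429 (chr1:1169055-1169076): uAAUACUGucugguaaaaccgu

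The second set pairs the arms made from the miR-17 cluster on chromosome 13 with those made from an intron of MCM7 on chromosome 7, which carry the same seeds from 2 separate transcripts.
hsa-miR-17-5p (chr13:91350618-91350640): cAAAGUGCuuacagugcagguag
hsa-miR-106b-5p (chr7:100094043-100094063): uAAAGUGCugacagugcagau
hsa-miR-92a-3p (chr13:91351361-91351382): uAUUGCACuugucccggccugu
hsa-miR-25-3p (chr7:100093571-100093592): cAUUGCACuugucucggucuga

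The third set holds microRNAs whose genes carried strong regions in both genotypes.
hsa-miR-21-5p (chr17:59841273-59841294): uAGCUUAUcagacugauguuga
hsa-miR-148a-3p (chr7:25949922-25949943): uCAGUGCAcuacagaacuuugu
hsa-let-7a-5p (chr9:94175962-94175983): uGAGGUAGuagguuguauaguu
hsa-miR-3191-5p (chr19:47226990-47227011): cUCUCUGGccgucuaccuucca
hsa-miR-3188 (chr19:18282129-18282151): aGAGGCUUugugcggauacgggg
hsa-miR-1248 (chr3:186786675-186786701): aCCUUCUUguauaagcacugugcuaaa
hsa-miR-3189-3p (chr19:18386607-18386627): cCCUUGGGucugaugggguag

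The last set holds microRNAs whose regions in the WT lists were weaker or absent in the KO lists.
hsa-miR-551a (chr1:3560710-3560730): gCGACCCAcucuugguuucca
hsa-miR-4274 (chr4:7460091-7460108): cAGCAGUCccucccccug
hsa-miR-375-3p (chr2:219001648-219001669): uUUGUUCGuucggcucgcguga
hsa-miR-3178 (chr16:2531979-2531995): gGGGCGCGgccggaucg

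The microRNA regions took a similar share of each list. There were 1004 of 46045 RPB1 regions in WT cells (2.18%, 95% Wilson interval 2.05 to 2.32) and 831 of 41605 in KO cells (2.00%, 1.87 to 2.14). Phospho-Ser2 regions numbered 2108 of 102674 in WT cells (2.05%, 1.97 to 2.14) and 1696 of 81012 in KO cells (2.09%, 2.00 to 2.19). These intervals cover counting error only, and the sequencing depth of the libraries, on which the number of regions depends, is unknown. The regions named 437 and 385 microRNA genes in the WT and KO RPB1 lists, and 509 and 430 genes in the phospho-Ser2 lists, with 218 genes present in all 4 and 153 in a single list.

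The strength of each region is its fold enrichment over input DNA at the summit. Its median over the microRNA regions was 5.49 in WT and 5.40 in KO cells for RPB1, against 5.51 and 5.62 for all regions, and 3.79 and 3.86 for phospho-Ser2, against 3.69 and 3.80. The highest values were 157 and 118 for RPB1 and 31.0 and 39.5 for phospho-Ser2. The cell type was checked with marker genes. All 10 hepatocyte markers had a region in at least 3 of the 4 lists, with albumin at 24.4 and 24.1 for RPB1. APOA1 was the weakest of them for RPB1, at 4.02 in WT and with no region in KO cells. Of 5 leukocyte markers 3 had an RPB1 region in WT cells and 1 in KO cells. The latter was CD68, with RPB1 at 30.4 in WT and 26.9 in KO, above albumin. Of 3 endothelial markers 1 had a region in each list. Of 4 stellate cell or fibroblast markers PDGFRB had a region in 3 lists, with RPB1 at 17.3 and 14.5, and ACTA2 in 1. PTPRC, CD3E, VWF, CDH5, COL1A1 and COL3A1 had none in any list. The marker values thus did not separate the cell types cleanly. At PTPN6, the highest RPB1 value was 24.0 in WT and 17.2 in KO cells and the highest phospho-Ser2 value 4.03 and 5.24, and since occupancy of the gene does not show whether the protein is made, this does not check the genotype.

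Regions assigned to microRNA genes were less often annotated as promoters than the RPB1 lists as a whole. The annotation counts a region as promoter when it lies within 1000 bp of the start of the assigned gene, and for a microRNA that start is the 5′ end of the hairpin. In WT cells 354 of the 1004 RPB1 regions were promoter regions (35.3%, 32.4 to 38.3), against 44.6% of all RPB1 regions, and in KO cells 308 of 831 (37.1%, 33.8 to 40.4), against 47.4%. Exons took more, with 10.1% and 11.3% of the microRNA RPB1 regions against 6.42% and 5.97% of all. For phospho-Ser2 introns were the largest class, with 45.6% in WT and 44.5% in KO cells, and promoters took 22.0% and 22.7%, against 23.9% and 25.1% of all phospho-Ser2 regions. WT and KO shares lay within each other's intervals for these classes.

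**Figure D1:**
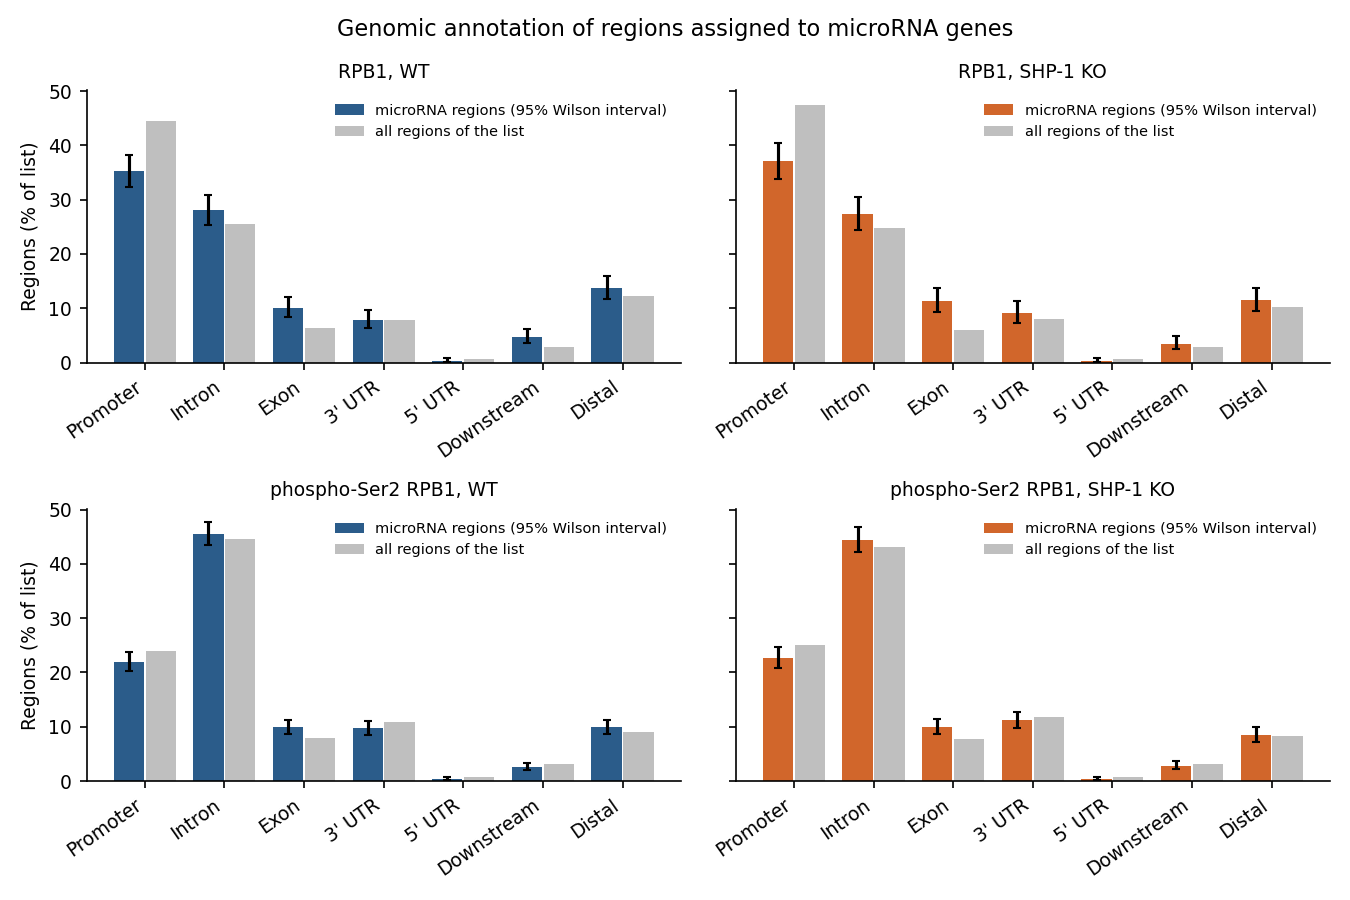
Percent of regions in each annotation class (vertical axis) for microRNA regions, with 95% Wilson intervals as bars, beside all regions of the same list in grey, in 1 panel per library. Promoters hold 35.3% and 37.1% of microRNA RPB1 regions against 44.6% and 47.4% of all, and introns lead in both phospho-Ser2 lists.

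MicroRNA regions lay farther from their start than other regions. The median distance was 2387.5 bp in WT and 2015.0 bp in KO cells for RPB1, against 1417 and 1194 bp for all RPB1 regions, and 5070.5 and 4524.0 bp for phospho-Ser2, against 4427 and 4164 bp. The hairpin start itself was overlapped by 199 WT RPB1 regions (19.8%, against 29.6% of all regions overlapping their start) and by 156 KO regions (18.8%, against 30.9%). More regions lay downstream of the start than upstream, with 540 against 265 in the WT RPB1 list and 1138 against 769 in the WT phospho-Ser2 list. The farthest RPB1 regions assigned to a microRNA lay 627134 bp (WT) and 627158 bp (KO) from MIR5702, so the assignment by distance reached far beyond any hairpin.

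**Figure D2:**
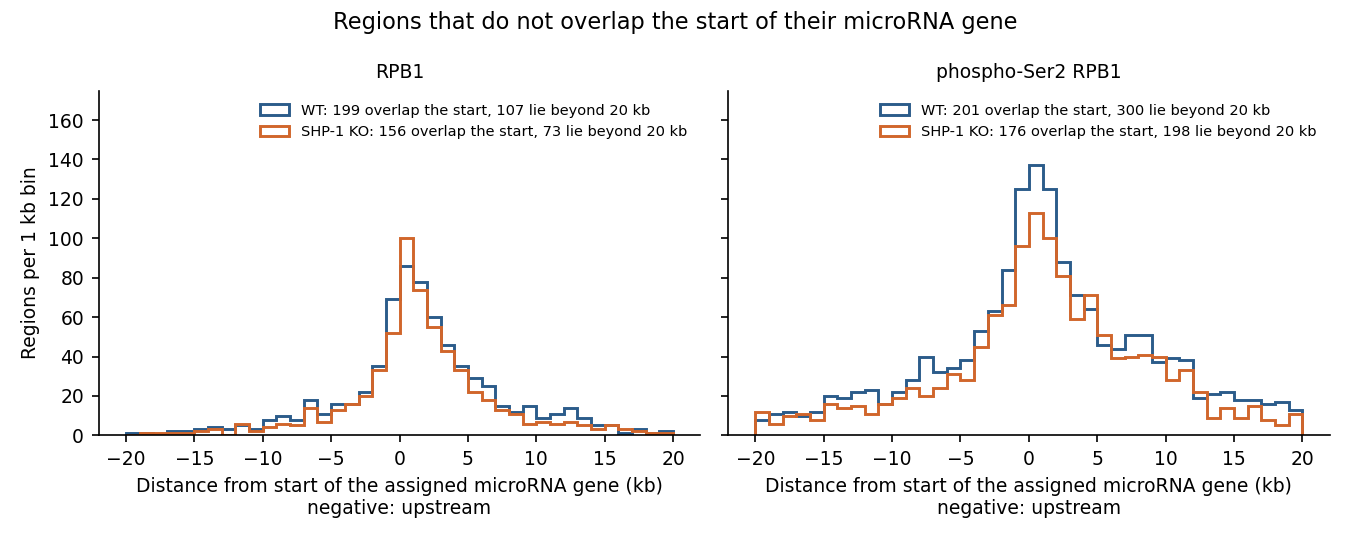
Number of microRNA regions per 1 kb (vertical axis) by distance from the start of the assigned gene in kb (negative is upstream), in WT and KO cells, leaving out regions that overlap the start or lie beyond 20 kb, whose numbers stand in the legend. The first 1 kb downstream is the fullest bin in each list, with 86 and 100 RPB1 and 137 and 113 phospho-Ser2 regions.

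The regions that covered the hairpin were wider and stronger than the rest. They numbered 208 of 1004 in WT and 165 of 831 in KO cells for RPB1 (20.7% and 19.9%), and 212 and 187 for phospho-Ser2 (10.1% and 11.0%). Their median fold enrichment was 16.4 in WT and 15.5 in KO cells for RPB1, against 5.01 and 5.22 for the microRNA regions off the hairpin. For phospho-Ser2 the medians were 5.68 and 5.75 on the hairpin and 3.68 and 3.80 off it. Width and overlap are linked by construction, and the median width on the hairpin was 1429 bp in the WT RPB1 list against 442 bp over all its microRNA regions.

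Many of the strong hairpin regions also held the start of a protein-coding gene. Of the 208 WT RPB1 regions on a hairpin 70 (33.7%) covered such a start in GENCODE release 44, as did 61 of the 165 in KO cells (37.0%). The median fold enrichment of microRNA regions with a coding start was 37.8 in WT and 29.3 in KO cells. On the hairpins with neither a coding nor a long noncoding RNA start in the region it was 7.01 (117 regions) and 7.36 (86 regions). Over the genes, 438 of the 692 (63.3%) lay inside a coding gene on its own strand, 72 inside a coding gene on the other strand, 75 inside a long noncoding RNA on its own strand, 24 inside one on the other strand, and 83 outside any of these. ChIP-seq does not read the strand, so polymerase on the microRNA transcript and on a neighbouring or host transcript cannot be told apart.

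RPB1 and phospho-Ser2 coincided more often at microRNA regions than elsewhere in the RPB1 lists. A phospho-Ser2 region of the same cells overlapped 63.9% (60.9 to 66.9) of microRNA RPB1 regions in WT and 67.9% (64.6 to 71.0) in KO cells, against 58.9% and 58.2% of all RPB1 regions. In the other direction an RPB1 region overlapped 21.9% and 22.7% of the microRNA phospho-Ser2 regions, against 24.2% and 26.1% of all. On hairpins the share of RPB1 regions with phospho-Ser2 was 73.6% and 75.8%.

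The strongest RPB1 regions under a microRNA name lay over host or neighbour genes. Those of MIR3188, MIR6821 and MIR4515 covered the upstream end of a coding gene, and other transcript starts were not checked. To compare genotypes, overlapping regions of the same antibody were merged into loci and the highest fold enrichment of each genotype was taken, since a region split differently in the 2 lists can change its assigned gene. MIR3191, inside BBC3, whose product PUMA drives apoptosis, had 157 in WT and 118 in KO cells. MIR3188, next to JUND, which encodes an AP-1 transcription factor, had 146 and 105. MIR6821 lies in PIM3, the gene of a serine/threonine kinase, and had 114 and 104.

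The remaining RPB1 loci shown differed in direction. MIR4651, inside POR, the reductase that feeds electrons to cytochrome P450 enzymes, had 107 in WT and 74.8 in KO cells. MIR4515, whose region covers the start of BTBD1, had 59.6 and 76.1 and was the only one of these 5 with the higher value in KO cells. A ratio below 1 was also the rule among all RPB1 loci, as given below.

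The strongest phospho-Ser2 regions also lay over host or neighbour genes. MIR6515, in CALR, the gene of the endoplasmic reticulum chaperone calreticulin, sat in a locus at 36.9 in WT and 39.5 in KO cells, although the region assigned to MIR6515 in WT had only 8.17. MIR1248, in an intron of EIF4A2, a translation initiation helicase, had 31.0 and 28.8 and no RPB1 region under its own name. MIR3189, in the stress-induced cytokine gene GDF15, had 25.7 and 22.3 for phospho-Ser2 and 85.6 and 55.9 for RPB1. MIR1539 had 25.2 and 21.6, and MIR150 had 24.7 and 24.5.

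The remaining leading phospho-Ser2 loci differed more between the genotypes. MIR3178 had 24.4 in WT and 7.15 in KO cells, while its RPB1 locus had 31.7 and 23.1. MIR6797, in the ribosomal protein gene RPS19, had 12.5 and 29.9, with RPB1 at 11.6 and 18.7. MIR6832, in PRRC2A, had 12.6 and 24.8 for phospho-Ser2 and 18.1 and 16.4 for RPB1. All 3 loci overlap a host or neighbouring coding gene, so the values are not specific to the microRNA.

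**Figure D3:**
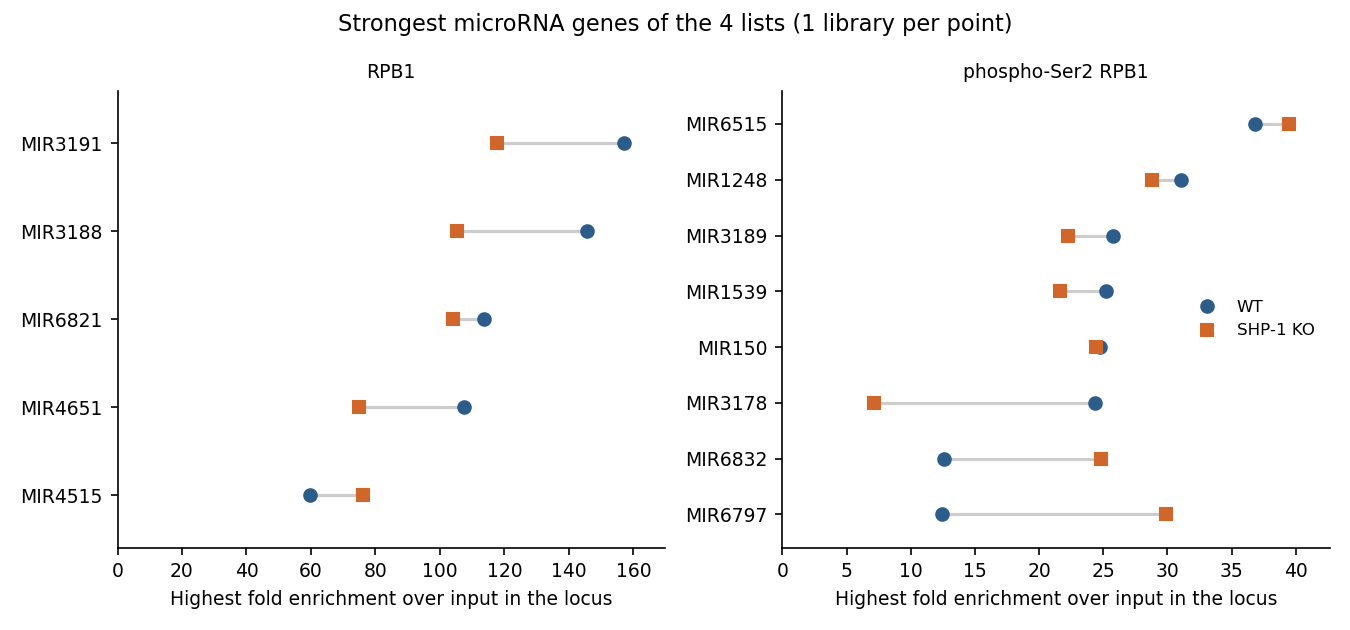
Highest fold enrichment over input (horizontal axis) in the locus of each microRNA gene that is among the 5 strongest of any list, except 1 gene not reported here, WT as circles and KO as squares, 1 library per point. For RPB1 4 of 5 loci lie lower in KO cells, and for phospho-Ser2 MIR3178 is lower (24.4 and 7.15) while MIR6797 (12.5 and 29.9) and MIR6832 (12.6 and 24.8) are higher.

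Among 10 genes of microRNAs abundant in or typical of liver, 5 had a region. MIR148A, which targets the low-density lipoprotein receptor, was the strongest, with RPB1 at 39.9 in WT and 34.6 in KO cells over the hairpin and phospho-Ser2 at 16.3 and 14.0. A second RPB1 locus assigned to MIR148A, 92750 bp away, had 13.2 and 4.56. The hairpins of MIR192 and MIR194-2 lie in a locus assigned mainly to their host gene, with RPB1 at 50.0 and 37.6 and phospho-Ser2 at 8.63 and 5.69. The MIR22 locus had phospho-Ser2 at 13.2 and 17.7, in 5 regions in WT and 1 in KO cells. MIR122, the classical liver microRNA, had no region under its name in any list, nor did MIR802, and none covered either hairpin. A region nearby can carry another name. MIR3591, whose hairpin lies antisense to that of MIR122, had 3 RPB1 regions in WT cells (5.09 at most) and 1 phospho-Ser2 region (3.84), and none in KO cells.

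Of 11 microRNA genes linked to lipid and glucose metabolism, 8 had a region, mostly of phospho-Ser2 in the body of a host gene. MIR33A lies in an intron of SREBF2, the sterol-response factor with which it limits cholesterol export. Phospho-Ser2 was at 6.86 in WT and 5.98 in KO cells over its hairpin, and at 12.7 and 8.96 in the locus just downstream. MIR33B, in SREBF1, had RPB1 at 5.01 and 4.22. MIR103A1, MIR103A2 and MIR107 share the seed GCAGCAU and lie in the pantothenate kinase genes PANK3, PANK2 and PANK1. Under these names they had no RPB1 region, and 12 phospho-Ser2 regions in WT and 8 in KO cells, with MIR107 at 8.50 and 5.21. Regions nearby can be listed under MIR103B1 and MIR103B2, whose hairpins lie antisense to those of MIR103A1 and MIR103A2. MIR103B1 had 1 RPB1 region in WT and 0 in KO cells, and 10 and 11 phospho-Ser2 regions. MIR103B2 had 3 and 2 RPB1 regions, and 3 and 6 phospho-Ser2 regions. MIR29A had an RPB1 locus at 3.49 and 6.51 and shared with MIR29B1 a phospho-Ser2 locus at 8.92 and 6.89.

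The let-7 family, known for holding back proliferation and for a part in glucose metabolism, had regions under its own names at 7 of 12 genes. With MIR4458, which has the same seed GAGGUAG, they carried 8 RPB1 regions in WT and 4 in KO cells, and 27 and 24 phospho-Ser2 regions. The strongest RPB1 region of the family lay upstream of MIRLET7A1, at -8313 bp from its start in the WT list, with 56.2 in WT and 38.2 in KO cells. Phospho-Ser2 was highest at MIRLET7D, in the same host transcript, with 10.2 and 14.1. MIRLET7F2 had 9 phospho-Ser2 regions in WT and 2 in KO cells along its host HUWE1, none above 4.71. The MIRLET7I hairpin lay in regions listed under LINC01465, with RPB1 at 27.9 in WT and 23.4 in KO cells.

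The miR-17 cluster promotes proliferation. Its main phospho-Ser2 locus, which covers MIR17 and MIR92A1, had 9.86 in WT and 16.3 in KO cells (a ratio of 1.65). The locus of 19382 bp held 3 regions in WT and 2 in KO cells, 1 of them 18750 bp wide. Another phospho-Ser2 locus of MIR92A1, farther downstream, went the other way, at 5.00 in WT and 3.08 in KO. MIR92A1 had 8 RPB1 regions in WT and 13 in KO cells, all of its loci in WT being present in KO. Its RPB1 locus from 91355224 to 91359723 on chromosome 13 had 7.64 and 12.5, and the next one 9.76 and 11.2. Of its 5 RPB1 loci in both lists, 3 were higher and 2 lower in KO. At the MCM7 intron, which yields arms with the same seeds, MIR106B had RPB1 at 7.46 and 10.6 and phospho-Ser2 at 11.9 and 12.1. The MIR25 locus had RPB1 at 9.33 in WT and 8.66 in KO cells. The regions assigned to MIR25 itself went the other way, at up to 5.00 in WT and 8.66 in KO. No other member of the 15-gene list had a region under its own name.

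The miR-200 family, which maintains the epithelial state, is made from 2 loci. On chromosome 1, the RPB1 locus over MIR200A, MIR200B and MIR429 (chr1:1164277-1171206) was a single region of 23.9 in WT cells and 6 regions of at most 8.98 in KO cells, a ratio of 0.376. MIR200B had 10 RPB1 loci, of which 3 were in both lists, all lower in KO, and 7 only in WT. For phospho-Ser2 it had 8 loci, 2 in both lists and both lower in KO, and 6 only in WT, the strongest at 9.40 and 6.41. At MIR429 phospho-Ser2 was at 8.73 and 5.56. The lower values were not limited to the family. Of its neighbours on chromosome 1, the RPB1 locus of MIR6726 had 11.5 in WT and 4.75 in KO cells. That of MIR6727 had 43.0 and 16.4, and that of MIR6808 14.0 and 9.50. Their hairpins lay in an RPB1 region in WT and in none in KO. The MIR6727 hairpin still lay in a phospho-Ser2 region in KO, at 8.75 against 9.67 in WT.

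On chromosome 12, MIR141 and MIR200C lie 2781 and 2383 bp beyond the 3′ end of PTPN6, the gene that was targeted. The MIR141 locus had RPB1 at 9.30 in WT and 11.4 in KO cells and phospho-Ser2 at 13.7 and 14.3. The family thus had the lower value in KO on chromosome 1 and the higher value on chromosome 12, where the phospho-Ser2 ratio was 1.04. The chromosome 12 hairpins lie between PTPN6 and PHB2, and the part of either gene in the values of the locus was not tested.

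Other microRNA genes with a known part in tumors gave regions at 11 of 16 genes, the miR-200 family included. MIR21, abundant in many tumors, lies in VMP1 and had RPB1 at 16.5 in WT and 20.9 in KO cells over the hairpin, and at 36.3 and 37.5 in the locus just downstream. Phospho-Ser2 there was 17.2 and 18.5. MIR183 had RPB1 at 44.1 and 32.7 in a region at -4504 bp from its start in WT. MIR210, induced by hypoxia, had 12.6 and 10.0, and MIR222 had 9.01 and 8.98, both away from the hairpin. The MIR210 hairpin lay in regions listed under its host gene MIR210HG, with RPB1 at 43.1 in WT and 22.2 in KO cells. MIR34A, a target of p53, had 15 phospho-Ser2 regions in WT and 7 in KO cells, but its 3 loci in both lists were all higher in KO, the strongest at 6.42 and 9.37.

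MicroRNAs with the same seed can act on the same targets, so regions were also grouped by seed. The RefSeq table, which lists mature arms for some genes without a hairpin row, gave 945 mature arms from 625 of the genes (those on chromosome 8 were not used here), with 841 different seeds, of which 13 were shared by at least 3 genes. The miR-29 seed AGCACCA, of microRNAs that lower collagen and other matrix genes, had 5 RPB1 regions in WT and 10 in KO cells and 22 and 23 phospho-Ser2 regions over 4 genes. The miR-15 and miR-16 seed AGCAGCA, of microRNAs that restrain the cell cycle, had 2 and 3 RPB1 and 17 and 18 phospho-Ser2 regions over 4 genes. The seed AUUGCAC of miR-25 and miR-92a had 11 and 14 RPB1 and 10 and 3 phospho-Ser2 regions over 4 genes. Genes with the same seed can share a host transcript, and numbers of regions do not measure the amount of mature microRNA.

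Of 17 microRNA genes typical of muscle, neuron, blood or endothelium, 3 had a region. MIR150, a lymphocyte microRNA, was the strongest, and its RPB1 value was 35.1 in WT and 24.0 in KO cells. MIR124-3, a neuronal microRNA, had phospho-Ser2 at 10.8 and 11.3 in a locus away from the hairpin, and MIR1-1, a muscle microRNA, had 1 weak RPB1 region of 3.57 in WT. MIR142, MIR223, MIR451A, MIR155 and MIR126 had none.

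Most microRNA regions of each list were overlapped by a region of the other genotype. For RPB1, 424 of the 1004 WT regions had no KO region (42.2%, against 38.1% of all WT RPB1 regions) and 203 of the 831 KO regions had no WT region (24.4%, against 25.1%). For phospho-Ser2, 969 of 2108 WT regions had no KO region (46.0%, against 47.8%) and 496 of 1696 KO regions had no WT region (29.2%, against 30.1%). The KO lists are shorter, which by itself lowers the share of WT regions that they overlap.

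Unshared regions were weak and narrow. In the WT RPB1 list their median fold enrichment was 4.51 and their median width 271 bp, against 7.05 and 756.5 bp for shared regions. Regions on a hairpin were shared in 83.7% of cases in WT and 94.5% in KO cells for RPB1. The shares were 61.9% and 74.9% over all RPB1 regions, and 76.5% and 86.8% over all RPB1 promoter regions. For phospho-Ser2 they were 85.4% and 89.8% on a hairpin, against 52.2% and 69.9% of all regions. Since hairpin regions were wider and stronger than the rest, these shares are not read as a trait of hairpins. Over the 1562 hairpins of the reference, 205 lay in an RPB1 region in WT and 166 in KO cells, 152 of them in both, 53 only in WT and 14 only in KO. For phospho-Ser2 the numbers were 228 and 202, with 168 in both, 60 only in WT and 34 only in KO. No such count was made over other features, and the KO lists are shorter, so nothing particular to hairpins is read from these numbers.

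Where both genotypes had a region, RPB1 was lower in KO cells at most microRNA loci. The median ratio of KO to WT fold enrichment was 0.881 (95% binomial interval of the median over loci 0.845 to 0.919, n = 525 loci), with 342 loci lower and 183 higher, against a median of 0.820 over all 24733 RPB1 loci. At least 1.5 times lower in KO were 110 of the 525 (21.0%, against 27.0% of all loci), and at least 1.5 times higher 28 (5.33%, against 4.39%). For phospho-Ser2 the median was 0.956 (0.930 to 0.985, n = 945 loci), against 0.975 over all 43109 loci. There 85 loci were at least 1.5 times lower (8.99%, against 10.6%) and 72 at least 1.5 times higher (7.62%, against 7.41%). The shares were near those over all loci, and nothing particular to the microRNA loci is read from them.

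The ratio depended on the strength of the locus in WT. Among the 217 microRNA loci with a WT RPB1 value of 10 or more the median ratio was 0.733, and among the 108 with a value under 5 it was 1.19. All RPB1 loci gave 0.706 and 1.16 in the same classes. For phospho-Ser2 the medians were 0.870 (96 loci) and 1.03 (566 loci), against 0.808 and 1.04 for all. The sorting used the same WT value that enters the ratio, and its part in the pattern was not tested.

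**Figure D4:**
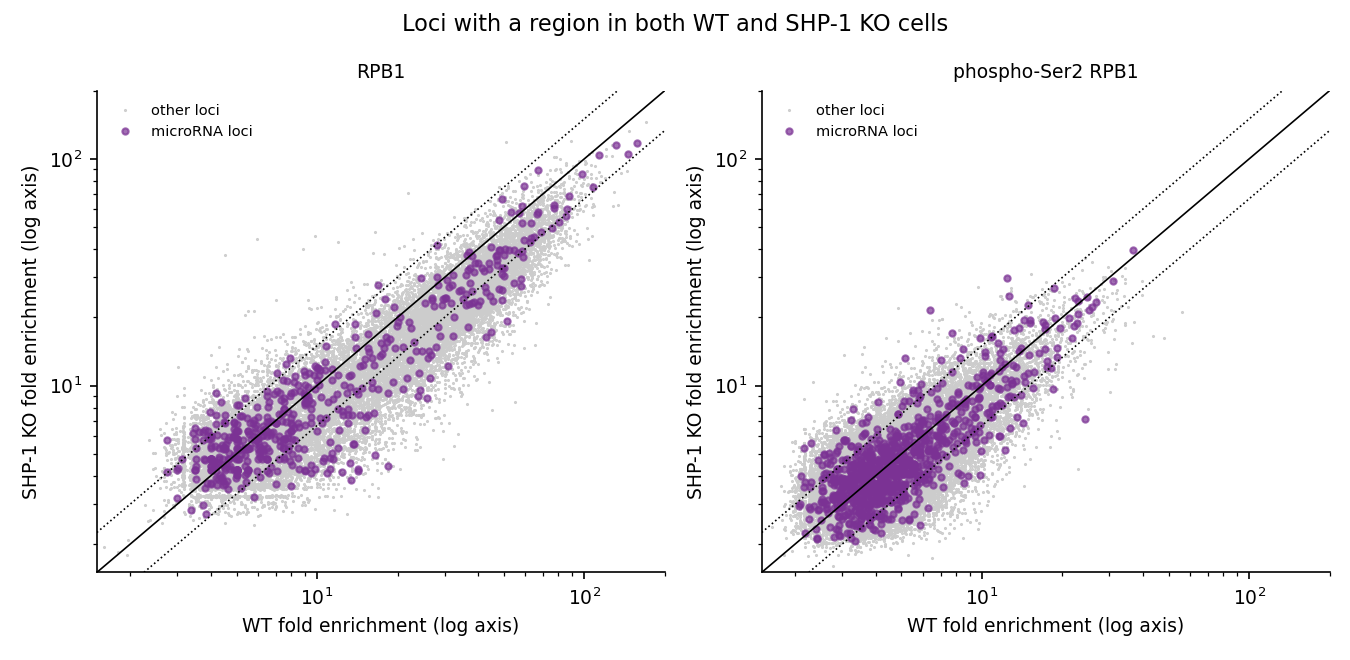
Highest fold enrichment of each locus with a region in both genotypes, WT on the horizontal and KO on the vertical axis (log axes), for RPB1 and phospho-Ser2, microRNA loci in purple over all other loci in grey. The solid line marks equal values and the dotted lines 1.5 times higher or lower, and the strongest RPB1 loci fall mostly below the solid line, microRNA loci within the grey cloud.

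The microRNA loci with the lowest ratios for RPB1 were MIR5093, which lies antisense to GSE1, with 18.4 in WT and 4.41 in KO cells, MIR375, a microRNA of pancreatic islets that limits insulin secretion, with 13.4 and 3.84, and MIR3176 with 14.3 and 4.22. The regions of MIR375 and MIR3176 covered the hairpin and not the upstream end of a coding gene. The highest ratios were at MIR6853 (4.17 and 9.27), MIR3126 (2.74 and 5.78) and MIR7705 (3.96 and 7.63), all from weak WT regions. MIR6853 also had a stronger RPB1 locus that went the other way, at 39.9 and 22.7, and MIR3126 had one at 10.9 and 4.11.

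For phospho-Ser2 the lowest ratios were at MIR3178 (0.293), at MIR6773, in the epithelial splicing factor gene ESRP2, with 9.84 in WT and 4.04 in KO cells, and at MIR4682 with 5.84 and 2.43. The highest was at a locus of MIR6738, in ARHGEF2, with 6.38 in WT and 21.5 in KO cells. The regions assigned to MIR6738 itself had at most 5.00 and 7.89. Next came MIR5087, in LINC01138, with 5.14 and 13.3, and MIR6516, in SEC14L1, with 2.17 and 5.33. MIR5087 had the same direction for RPB1, at 17.0 and 27.8, whereas MIR6738 had RPB1 at 7.58 and 5.79.

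A few microRNA genes had a run of regions in 1 genotype and none in the other. Among the 48 microRNA genes with at least 5 RPB1 regions in WT cells, 5 had none in KO cells, namely MIR551A, MIR4274, MIR153-2, MIR4710 and MIR5697. Over all genes 0.797% of those with at least 5 WT RPB1 regions had none in KO. Of the 35 microRNA genes with at least 5 RPB1 regions in KO cells, 0 had none in WT, where the share over all genes was 0.228%. For phospho-Ser2, 6 of 141 had none in KO cells (MIR4274, MIR4511, MIR551A, MIR574, MIR595 and MIR6769A, against 2.19% of all genes) and 1 of 118, MIR4435-2, had none in WT (against 0.315%). With 5 genes or fewer in all but 1 of these sets, each share rests on few genes.

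MIR551A, in an intron of MEGF6 at 1p36, had the run with the most regions, with 28 RPB1 regions in WT cells over 29327 bp (chr1:3546996-3576322) at 3.50 to 20.8, and 0 in KO cells. It also had 11 phospho-Ser2 regions in WT at up to 7.90, and 0 in KO. Under any gene name, 12 WT phospho-Ser2 regions overlapped the RPB1 span. The highest, at 33.5, was not assigned to MIR551A. The span held no KO region of either antibody under any other gene name. The MIR4274 regions, in introns of SORCS2, numbered 6 for RPB1 and 17 for phospho-Ser2 in WT and 0 in KO cells, with highest values of 16.6 and 9.84. They lay at least 55009 bp from the MIR4274 hairpin.

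The other runs were weaker. MIR595 had 20 phospho-Ser2 regions in WT cells at 2.78 to 4.66 over 97779 bp, and MIR153-2 had 5 RPB1 regions at 4.01 to 6.51, both inside PTPRN2 on chromosome 7. At MIR574, which carries 7 phospho-Ser2 regions in FAM114A1, the same span held 4 RPB1 regions in WT and 0 in KO. The RPB1 run of MIR5697, in NMNAT1, was different, since the span held 6 phospho-Ser2 regions in WT and 5 in KO cells. The runs at MIR551A and MIR5697 lie on chromosome 1, as does the MIR200B locus with its fewer KO regions. On that chromosome 64 of 131 WT RPB1 microRNA regions had no KO region (48.9%, 40.5 to 57.3), against 41.2% on the other chromosomes. Among all WT RPB1 regions the shares were 43.1% and 37.5%. The part of the clone in these runs was not tested.

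Some genes had more regions in KO cells, and they were picked after their values were seen. MIR1207 and MIR1205, both in the long noncoding RNA PVT1, had 14 and 10 phospho-Ser2 regions in WT and 36 and 19 in KO cells, and MIR1269A had 2 and 15. Of the 40 phospho-Ser2 loci of MIR1207, 27 were only in KO and 4 only in WT, with the highest values at 4.34 and 4.86. Fewer regions in KO cells were listed at MIR7161, with 43 and 29 for phospho-Ser2, and at MIR421, in the long noncoding RNA FTX, with 20 and 7 phospho-Ser2 regions, where the 6 loci in both lists were all lower in KO.

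**Figure D5:**
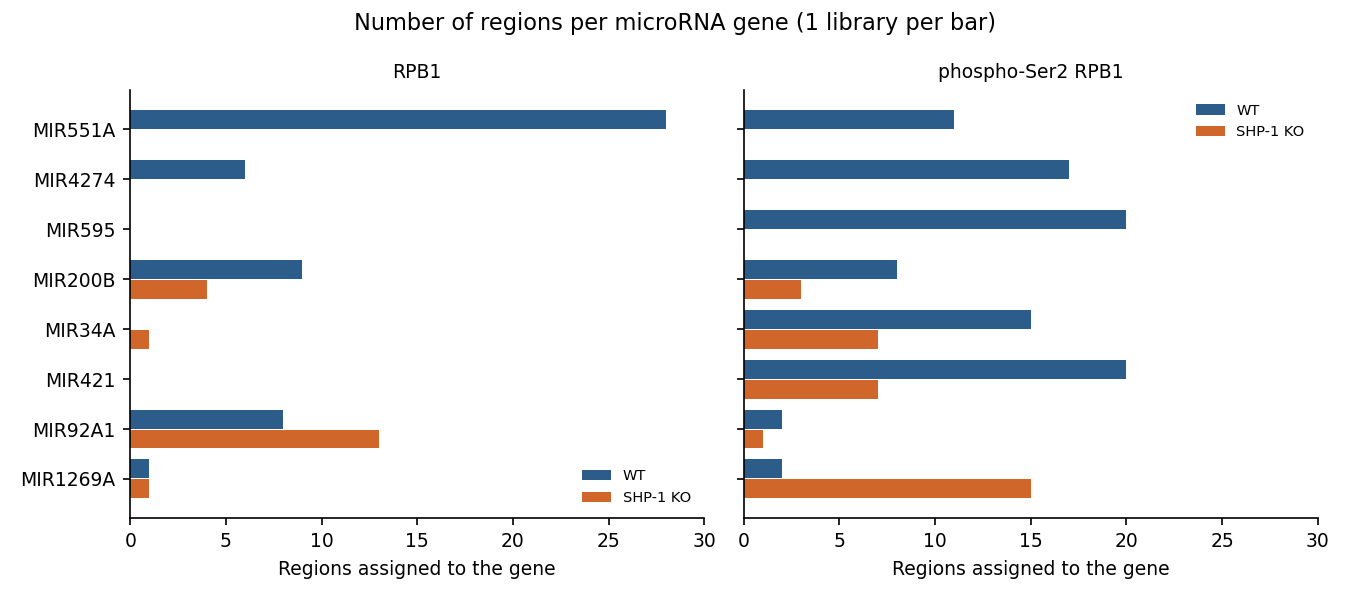
Number of regions assigned to each of 8 microRNA genes (horizontal axis), WT in blue and KO in orange, for RPB1 and phospho-Ser2. The genes were picked after their values were seen, MIR551A, MIR4274 and MIR595 having none in KO cells and MIR92A1 (RPB1, 8 and 13) and MIR1269A (phospho-Ser2, 2 and 15) having more.

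The strongest regions with no overlapping region in the other genotype were at MIR551A (20.8), MIR4274 (16.6) and MIR4645 (14.9) for WT RPB1, and at MIR4708 (14.2), MIR6775 (13.2) and MIR4695 (7.16) for KO RPB1. MIR4708 had no region in WT with either antibody and 5.54 for phospho-Ser2 in KO cells, where it was also among the 3 strongest unshared phospho-Ser2 regions, with MIR3680-1 (5.69) and MIR148A (5.35). The region assigned to MIR4708 lies 32161 bp from the hairpin and that assigned to MIR6775 24891 bp. In the WT phospho-Ser2 list the third was MIR941-2 (6.33), after MIR4274 and MIR551A. The mature sequences of MIR941-2 and MIR3680-1 are shared with other gene copies. Their unshared regions do not cover the hairpin. Whether reads there are split between near-identical loci was not tested, and these 2 are uncertain.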

How the data were processed

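RPB1 and phospho-Ser2 RPB1 ChIP-seq of HepG2 cells was analysed from the 4 region lists that the authors deposited. Per the paper and the submitters' processing notes, Trimmomatic (trimming), BWA (alignment to hg38) and MACS2 (narrow peaks, each against the input DNA of its genotype) were run by the authors, in versions not given in the sources used here. Each deposited row holds a fold enrichment over input (a ratio), the −log10 of its p-value and q-value, a MACS2 score and the nearest gene. The authors also deposited a csaw comparison of RPB1 in KO and WT (p-values, adjusted p-values and numbers of windows up and down), which was not used. The input libraries were not analysed here.

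Overlap meant at least 1 bp. Shares have 95% Wilson intervals. Host genes and coding starts came from GENCODE release 44 on the same build, with 1 start per gene at the upstream end of its span. The genes named were the 5 strongest per list, the 3 strongest unshared regions per list, the 3 highest and 3 lowest ratios per antibody, the members of 6 lists of known microRNAs with a region, and MIR4274; 1 of these genes is not reported here. Members, lists and rule were chosen with earlier results of these data known. Overlap functions were tested on simulated data. Python 3.11.15, pandas 2.3.3, NumPy 2.4.6, SciPy 1.17.1 and Matplotlib 3.10.9 were used. Depth is unknown, since no read counts were used. MIR150, MIR124-3 and MIR7705 have no sequence printed.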

Additional observations from a re-analysis of the deposited data

How the results depend on the processing

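No paired analysis was possible because each antibody and genotype had 1 library. Of 50 alternative values of the 12 main results, 8 had to equal the main value and test nothing, since 0 microRNA regions repeated an interval and the promoter class already ends at 1 kb. Of the other 42, 23 stayed within the interval of the main value or within 1.5 times of it, and none reversed the direction of a ratio. All values without chromosome 1 and with the mean in place of the highest fold enrichment of a locus were among the 23. At −log10 q-values of 5 or more, the lists held 615 and 530 microRNA RPB1 regions and 1036 and 838 phospho-Ser2 regions in WT and KO cells, promoters took 39.8% and 41.5% of the RPB1 regions, and 63.7% of WT RPB1 regions were shared. With regions within 3000 bp of a microRNA gene taken whatever their symbol, promoters took 70.9% and 70.7%. That set left out 452 of the WT and 339 of the KO microRNA RPB1 regions, which lie farther away, and 55.7% and 54.8% of it had a microRNA symbol. The WT phospho-Ser2 list held 1370 such regions, the shared shares were 65.9% and 80.2% for RPB1 and 64.6% and 81.1% for phospho-Ser2, and the median RPB1 ratio was 0.835. A reciprocal overlap of at least 50% lowered the shared shares to 32.0% and 38.3% for RPB1 and to 26.6% and 33.0% for phospho-Ser2. Depth is unknown, so a missing region is not shown to be missing polymerase.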
